A study of Oryza sativa Japonica Group with 4 samples.

Results

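The genes described here are the 10 group D, or TGA-type, bZIP genes of rice, among 37862 genes in the count table. The rule that chose them uses family membership and no measured value, although it was written with earlier results of these data known. They are OsbZIP47 (Os06g0265400), TGA2.1 (Os07g0687700), TGA2.2 (Os03g0318600), an LG2-like gene (Os01g0859500), OsTGA10 (Os09g0489500), OsbZIP64 (Os08g0176900) and 4 genes given by identifier only, Os05g0443900, Os06g0614100, Os04g0637000 and Os11g0152700. OsbZIP47 and Os06g0614100 both lie on chromosome 6, as their identifiers show, and each of the other 8 genes lies on a chromosome of its own. Gene positions were not analysed here.

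Total RNA was sequenced from pooled young panicles, 0.1 to 0.5 cm long, of the rice cultivar TP309. The WT group holds 2 libraries of plants without the transgene. The OsbZIP47KD group holds 2 libraries of the transgenic line 14, in which the maize ubiquitin promoter drives a hairpin RNA. The hairpin carries a fragment of the OsbZIP47 3′ untranslated region in sense and antisense orientation and is meant to lower this transcript by RNA interference. Both transgenic libraries come from this 1 line. The labels do not say how many plants or panicles entered each pool, so the p-values below measure the spread between these pools. The total count ranged from 3839165 to 5611969 per library, with both transgenic libraries below both WT libraries. In bulk tissue, fewer cells of a type and less RNA per cell cannot be told apart.

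The bZIP proteins bind DNA as dimers through a basic region and a leucine zipper, and the TGA type recognises elements with the core TGACG. In Arabidopsis, TGA factors recruit NPR1, the coactivator of the salicylic acid response, and others are modified by ROXY glutaredoxins during flower development. Counterparts of OsbZIP47 are PERIANTHIA of Arabidopsis, which sets floral organ number, and FASCIATED EAR4 of maize, which limits the size of the inflorescence meristem. Related proteins often bind the same elements, so the levels of the relatives are of interest where 1 member is targeted, both for a rise of a relative and for an unintended fall through the hairpin.

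The read total of OsbZIP47 itself was not lower in the libraries labelled OsbZIP47KD but higher. Its counts were 471 and 261 in WT replicates 1 and 2, and 1003 and 919 in the libraries labelled OsbZIP47KD. On the scale of CPM (counts scaled to the size of each library by the trimmed mean of M-values, TMM), the levels were 88.8 and 51.9 in WT against 262 and 219. Both labelled libraries lay above both WT libraries, with group means of 70.3 ± 26.1 CPM (SD, n = 2) and 241 ± 30.2 CPM (SD, n = 2). The log2 fold change was 1.77 (SE 0.25, 95% interval 1.22 to 2.33), or 3.42-fold, with an adjusted p of 0.01406 in edgeR's quasi-likelihood test. The read total of this gene was thus higher where the label names a knockdown. Counts per gene do not separate the native transcript from transgene RNA that carries the same fragment, so the total of this gene does not check the labels, and the share of each cannot be told apart. All directions given for the other members below are therefore directions in the libraries so labelled. Without OsbZIP47KD replicate 1 the log2 fold change of OsbZIP47 was 1.58 with an adjusted p of 0.09688, and without OsbZIP47KD replicate 2 it was 1.89 with an adjusted p of 0.06717, in the same edgeR test.

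OsbZIP47 also differed between the 2 WT pools by more than counting error. WT replicate 2 held 0.584 times the level of WT replicate 1 (95% exact counting interval 0.500 to 0.681), while OsbZIP47KD replicate 2 held 0.837 times the level of replicate 1 (0.765 to 0.916). These intervals, and those of all ratios between libraries below, cover counting error only. TGA2.1 differed between the WT pools in the same direction, with a ratio of 0.611 (0.458 to 0.811), and Os04g0637000 in the other, with 1.44 (1.12 to 1.86). The counting intervals of the other 7 members included a ratio of 1 between the WT pools. The share of all tested genes that differed in this way was not computed, so these differences are not shown to be particular to the members.

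**Figure D1:**
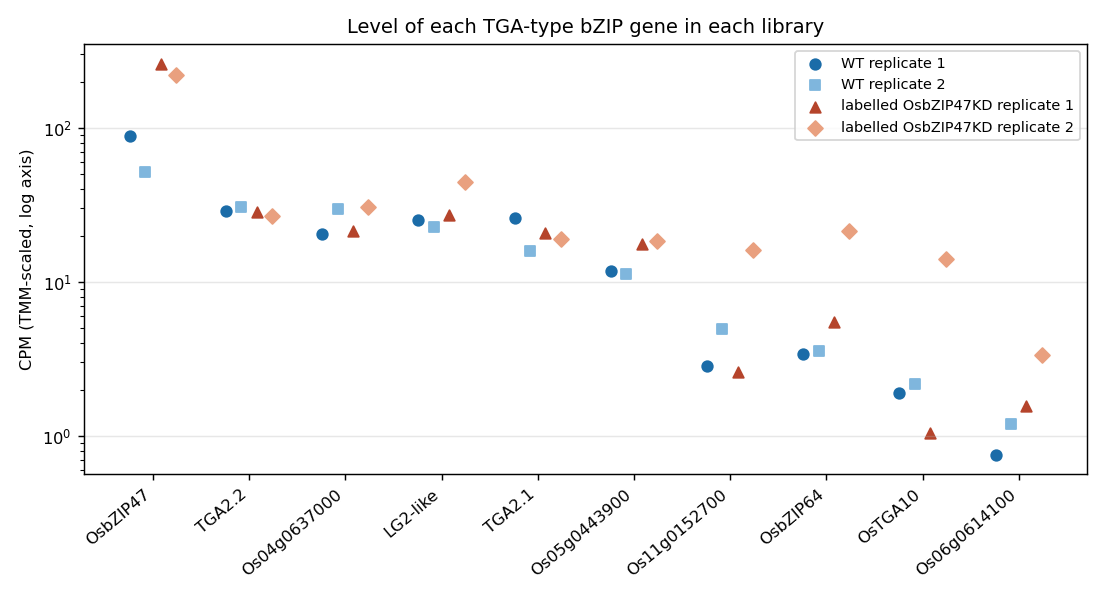
TMM-scaled CPM (log axis) of the 10 TGA-type bZIP genes, ordered by mean WT level, with 1 point per library. OsbZIP47 lies at 51.9 to 88.8 CPM in WT and at 219 to 262 CPM in the libraries labelled OsbZIP47KD, and OsTGA10, OsbZIP64 and Os11g0152700 stand highest in OsbZIP47KD replicate 2. Gene lengths were not used, so heights do not rank the genes.

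TGA2.1 and TGA2.2 are members with a known link to defence, and the members were not ranked by such a role. In rice, TGA2.1 is known as a negative regulator of basal resistance to bacteria, and both proteins bind the rice NPR1 homologue. TGA2.1 had 138 and 80 counts in WT, against 79 and 80 in the OsbZIP47KD libraries, or 26.0 and 15.9 CPM against 20.6 and 19.1 CPM. The OsbZIP47KD levels lay between the WT levels, with a log2 fold change of -0.08 (95% interval -0.81 to 0.65, adjusted p = 0.9456, edgeR quasi-likelihood test). TGA2.2 had 154 and 154 counts in WT, against 109 and 113 in the OsbZIP47KD libraries, or 29.0 and 30.6 CPM against 28.5 and 27.0 CPM. Its groups did not overlap, but they were close to each other, with a log2 fold change of -0.11 (95% interval -0.69 to 0.47, adjusted p = 0.8998, edgeR quasi-likelihood test). TGA2.2 was also the steadiest of the abundant relatives, since its 4 values spanned only 27.0 to 30.6 CPM. Abundant and rare refer here and below to reads, since gene lengths were not used.

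The LG2-like gene is named after LIGULELESS2, which in maize marks the boundary between leaf blade and sheath and also acts in tassel branching. It had 134 and 115 counts in WT, against 104 and 188 in the OsbZIP47KD libraries, or 25.3 and 22.9 CPM against 27.2 and 44.8 CPM. Both OsbZIP47KD libraries were above both WT libraries, replicate 1 by little and replicate 2 by more. The log2 fold change of 0.58 (95% interval -0.07 to 1.24) did not pass the test (adjusted p = 0.4132, edgeR quasi-likelihood test). Os05g0443900 had 62 and 57 counts in WT, against 68 and 77 in the OsbZIP47KD libraries, or 11.7 and 11.3 CPM against 17.8 and 18.4 CPM. Its replicates lay close together in both groups and the groups did not overlap. Its log2 fold change of 0.65 (95% interval -0.10 to 1.40) nevertheless did not pass the test, which uses a spread shared with genes of like abundance (adjusted p = 0.4228, edgeR quasi-likelihood test). Each OsbZIP47KD library on its own held Os05g0443900 above the pooled WT libraries, 1.54-fold in replicate 1 (counting interval 1.13 to 2.09) and 1.60-fold in replicate 2 (1.18 to 2.14). Among the 9 relatives it alone had both of these intervals above 1. The comparison covers counting error only and was chosen after the values were seen. The share of all tested genes that meet it was not computed, so it does not set this gene apart.

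Os04g0637000 varied more within the groups than between them. It had 109 and 149 counts in WT, against 82 and 129 in the OsbZIP47KD libraries, or 20.5 and 29.6 CPM against 21.4 and 30.8 CPM. Replicate 2 was 1.44 times replicate 1 in WT, as given above, and 1.44 times in OsbZIP47KD (counting interval 1.08 to 1.92). Between the groups the log2 fold change was 0.06 (95% interval -0.63 to 0.75, adjusted p = 0.9577, edgeR quasi-likelihood test).

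**Figure D2:**
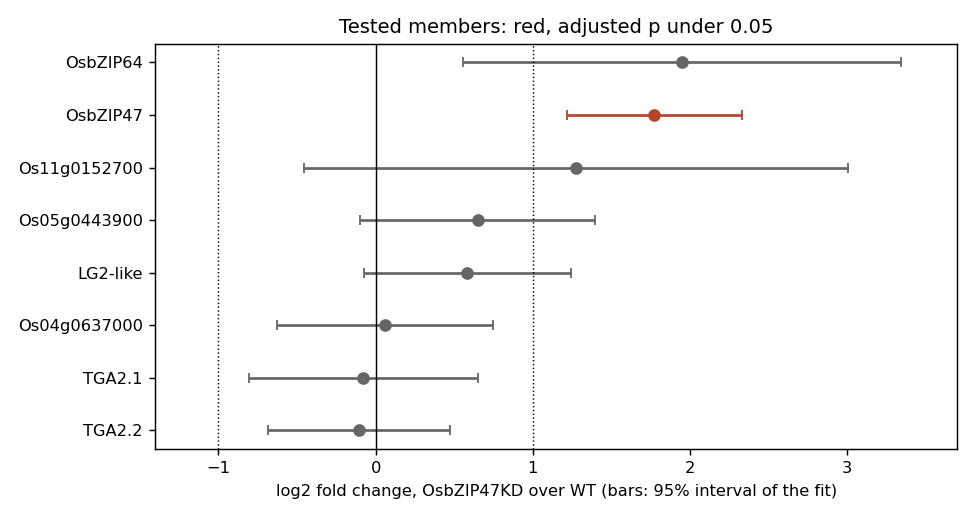
Log2 fold change of OsbZIP47KD over WT for the 8 members that passed the filter on low counts, with 95% intervals of the edgeR fit, n = 2 per group. OsbZIP47, in red, is the only member at an adjusted p under 0.05, and the intervals of all 7 relatives lie above -1, the left dotted line.

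Among the rarer members, OsTGA10, OsbZIP64 and Os11g0152700, were each high in 1 library only. OsTGA10 is known in rice as a target of the E-class gene OsMADS8 and as a factor that the tapetum, the nourishing layer of the anther, needs for fertile pollen. It had 10 and 11 counts in WT, 4 in OsbZIP47KD replicate 1 and 59 in replicate 2, or 1.89, 2.19, 1.04 and 14.1 CPM. OsbZIP64 had 18 counts in each WT library, 21 in OsbZIP47KD replicate 1 and 90 in replicate 2, or 3.39, 3.58, 5.48 and 21.5 CPM. Os11g0152700 had 15 and 25 counts in WT, 10 in OsbZIP47KD replicate 1 and 68 in replicate 2, or 2.83, 4.97, 2.61 and 16.2 CPM. For each of the 3 genes OsbZIP47KD replicate 1 lay within or near the WT range, while replicate 2 stood above every other library. Against the pooled WT libraries, OsbZIP47KD replicate 2 was 6.93-fold higher for OsTGA10 (counting interval 4.15 to 12.0), 6.16-fold for OsbZIP64 (4.15 to 9.34) and 4.19-fold for Os11g0152700 (2.80 to 6.36). The same ratios for OsbZIP47KD replicate 1 were 0.514 (0.128 to 1.52), 1.57 (0.873 to 2.77) and 0.675 (0.301 to 1.37), all with intervals that included 1.

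The 2 libraries of the same transgenic line thus differed for these genes. Replicate 2 exceeded replicate 1 by 13.5-fold for OsTGA10 (counting interval 4.99 to 51.1), by 6.21-fold for Os11g0152700 (3.18 to 13.5) and by 3.92-fold for OsbZIP64 (2.41 to 6.63). The LG2-like gene differed by less, 1.65-fold (1.29 to 2.12). Among all tested genes, 3.88% were at least 3-fold higher in OsbZIP47KD replicate 2 than in replicate 1 and 1.54% at least 3-fold lower, while in WT both shares were 2.91%. Among the 6029 tested genes with a mean WT level under 6 CPM, a limit chosen after the values were seen, 12.9% were at least 3-fold higher in OsbZIP47KD replicate 2 than in replicate 1, against 10% in WT replicate 2 over replicate 1. Of the 19 list genes described below, 4 were also at least 3-fold higher in OsbZIP47KD replicate 2 than in replicate 1, 2 of them among the 9 other bZIP genes, and none was 3-fold lower. The other 7 of these bZIP genes had ratios of replicate 2 to replicate 1 from 0.422 to 1.12. All list genes were matched through the study's own table of genes changed in these same samples. That choice shaped how many were higher or lower in replicate 2, so these counts are no independent support for the 3 members. TDR (Os02g0120500), a bHLH regulator of the tapetum, had 0 and 4 counts in WT, 4 in OsbZIP47KD replicate 1 and 37 in replicate 2. It was the only gene of the tapetum list that could be matched to a name. FON2 (Os11g0595400), a CLAVATA3-like peptide that limits the floral meristem, had 4, 0, 5 and 23 counts in the same order. Of the other bZIP genes, BZIP4 (Os01g0542700) had 0, 3, 4 and 39 counts and BZIP35 (Os04g0181300) had 2, 6, 6 and 27. The part of tissue makeup or stage of that pool in the values of the 3 members was not tested.

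**Figure D3:**
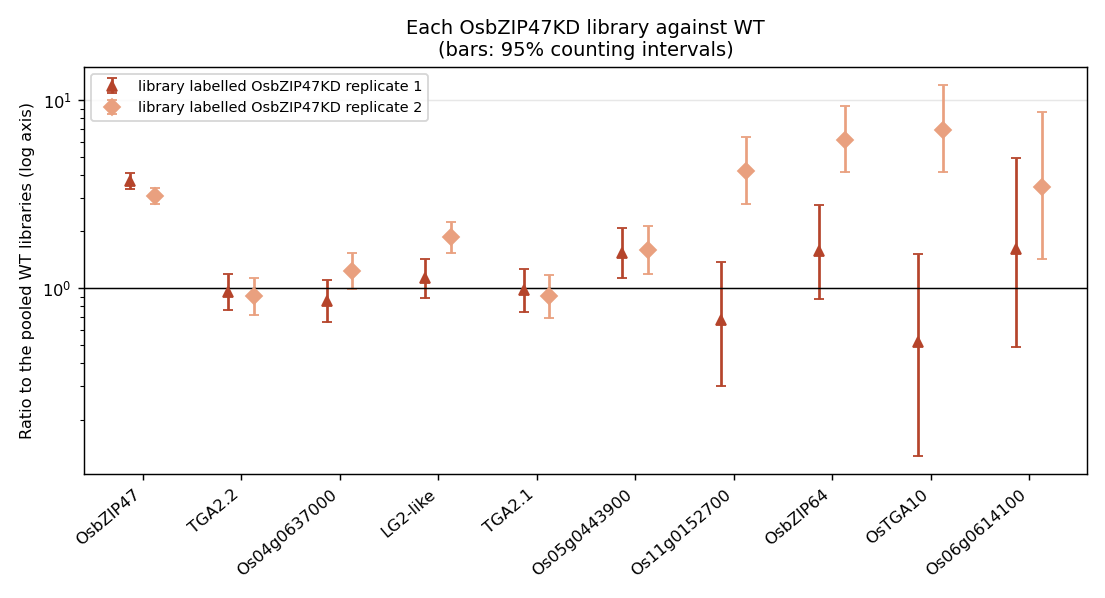
Ratio of each library labelled OsbZIP47KD to the pooled WT libraries (log axis) for the 10 members, with 95% counting intervals. For OsTGA10, OsbZIP64 and Os11g0152700 replicate 2 lies 4.19- to 6.93-fold above WT while the interval of replicate 1 includes 1, whereas the intervals of both libraries lie above 1 for OsbZIP47. The LG2-like gene and Os06g0614100 also have only the interval of replicate 2 above 1.

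In the test over both libraries, OsbZIP64 had a log2 fold change of 1.95 (SE 0.63, 95% interval 0.56 to 3.34) with an adjusted p of 0.2012 by edgeR's quasi-likelihood test, so it was not called, although it was the 1 relative at an unadjusted p under 0.05. Without OsbZIP47KD replicate 2 its log2 fold change was 0.65. Os11g0152700 had a log2 fold change of 1.28 (95% interval -0.45 to 3.01, adjusted p = 0.5016, edgeR quasi-likelihood test), and without OsbZIP47KD replicate 2 it was -0.57. OsTGA10 fell under the filter on low counts, and its pooled counts of 21 in WT and 63 in OsbZIP47KD gave a ratio of 3.87 (counting interval 2.33 to 6.67), which rests on OsbZIP47KD replicate 2. In a fit with no filter its log2 fold change was 1.80 with an adjusted p of 0.3674 in the edgeR test.

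Os06g0614100 had the fewest reads of the members and also fell under the filter. It had 4 and 6 counts in WT, against 6 and 14 in the OsbZIP47KD libraries, or 0.754 and 1.19 CPM against 1.57 and 3.34 CPM. The pooled counts of 10 and 20 gave a ratio of 2.58 (counting interval 1.15 to 6.17), and the fit with no filter gave an adjusted p of 0.748 in the edgeR test. Against the pooled WT libraries, the ratio was 1.62 in OsbZIP47KD replicate 1 (counting interval 0.484 to 4.92) and 3.45 in replicate 2 (1.43 to 8.69). As for the 3 genes above, only the interval of replicate 2 lay above 1, but the replicates' own intervals overlapped. The more abundant LG2-like gene also had only the interval of replicate 2 above 1, and its intervals did not overlap. Its ratios were 1.13 in replicate 1 (0.888 to 1.42) and 1.86 in replicate 2 (1.53 to 2.26).

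Of the 10 members, 8 were tested, and 1, OsbZIP47, was called higher at an adjusted p under 0.05. Of all 25289 tested genes, 0.127% were called higher. No member was called lower by edgeR, and none by DESeq2 or limma, beside 0.522% of all genes in edgeR, and none of the 8 had a negative fold change at an unadjusted p under 0.05. At the limits the study used, a change of 1 log2 unit or more together with an unadjusted p no higher than 0.05, OsbZIP47 and OsbZIP64 were higher, beside 4.62% of all genes, and no member was lower, beside 2.50%. Both OsbZIP47KD libraries lay above both WT libraries for 4 of the 8 tested members, OsbZIP47, the LG2-like gene, Os05g0443900 and OsbZIP64, beside 23.0% of tested genes. They lay below for 1, TGA2.2, beside 22.8%.

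For the question of an unintended fall of a relative, the intervals are more direct than the calls. With all 4 libraries, all 7 tested relatives had a 95% interval above a log2 fold change of -1, so a fall of 1 log2 unit or more lay outside each of them. The lowest bound was that of TGA2.1, at -0.81. This did not hold for every member with 1 library left out. The lower bound of TGA2.1 reached -1.28 when WT replicate 2 was omitted and -1.12 when OsbZIP47KD replicate 1 was, and without OsbZIP47KD replicate 2 that of Os04g0637000 was -1.04 and that of Os11g0152700 -2.50. The bounds of TGA2.2, the LG2-like gene, Os05g0443900 and OsbZIP64 stayed above -1 with any 1 library left out. Smaller falls of TGA2.1, TGA2.2, Os04g0637000 and Os11g0152700 could not be told from no change with 2 libraries a group. The intervals of the LG2-like gene and Os05g0443900 also reached below 0, to -0.07 and -0.10, so slight falls of these were not excluded. Of the 7 tested relatives, 5 had a fold change above 0 and 2 below 0. The signs of Os04g0637000, Os11g0152700 and TGA2.1 changed in some alternatives, so this split was not firm. The fold changes of the 7 ranged from -0.11 to 1.95 with a median of 0.58, and the median of all tested genes was 0.015. The members share libraries and are not independent of each other, and those that passed the filter are not all members.

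The larger read total of the whole family in the OsbZIP47KD libraries lay mainly in OsbZIP47. Its reads may include transgene RNA with the same fragment, as given above, so this total need not be native transcript. The 10 members together held 210 and 174 CPM in WT and 388 and 414 CPM in the OsbZIP47KD libraries. The 9 relatives without OsbZIP47 held 121 and 122 CPM in WT, 126 in OsbZIP47KD replicate 1 and 195 in replicate 2. Their sum in OsbZIP47KD replicate 1 was therefore close to that in WT, and the excess lay in replicate 2. OsTGA10, OsbZIP64 and Os11g0152700, grouped after their values were seen, made up 8.11 and 10.7 CPM of it in WT, 9.14 in OsbZIP47KD replicate 1 and 51.8 in replicate 2. The 5 more abundant relatives, TGA2.1, TGA2.2, the LG2-like gene, Os05g0443900 and Os04g0637000, summed to 113 and 110 CPM in WT and to 115 and 140 CPM in the OsbZIP47KD libraries.

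OsbZIP47 took 42.2% of the family's reads in WT replicate 1 (95% Clopper-Pearson interval 39.3 to 45.2) and 29.8% in WT replicate 2 (26.8 to 32.9). In the libraries labelled OsbZIP47KD it took 67.5% (65.0 to 69.9) and 52.9% (50.5 to 55.3). Both labelled libraries were above both WT libraries, and within each group the 2 shares differed by more than counting error. These are shares of reads, not of transcripts, since gene lengths were not used. In the libraries labelled OsbZIP47KD they may also hold reads of transgene RNA.

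**Figure D4:**
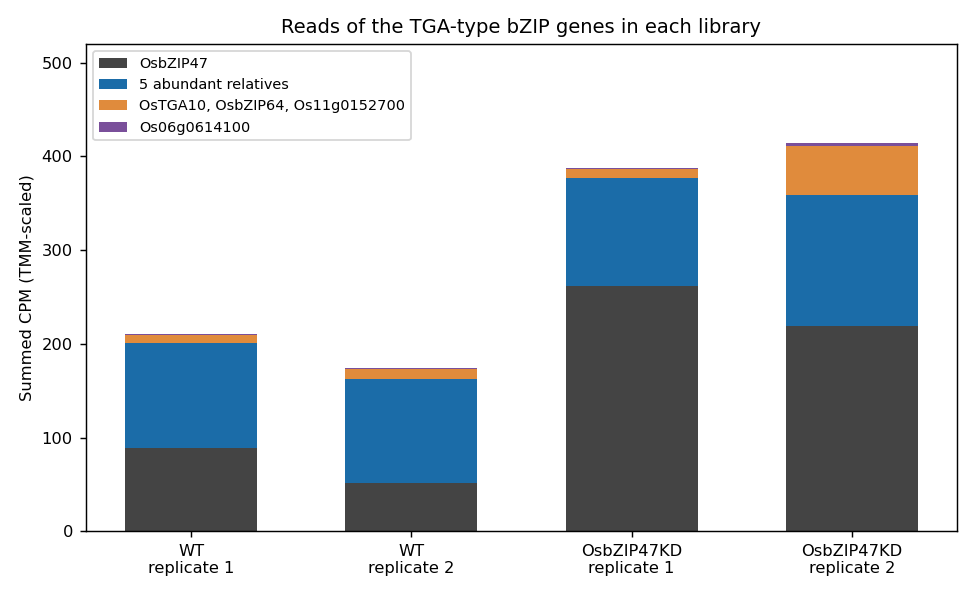
Summed TMM-scaled CPM of the TGA-type bZIP genes in each of the 4 libraries, divided into OsbZIP47, the 5 more abundant relatives, the 3 genes high in OsbZIP47KD replicate 2, and Os06g0614100. The sums are 210 and 174 CPM in WT and 388 and 414 CPM in the libraries labelled OsbZIP47KD, and the 3 genes reach 51.8 CPM in OsbZIP47KD replicate 2 alone.

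Genes that act with TGA factors were read from lists, of which only those named in the study's own table of changed genes could be matched. Those genes were chosen on these same samples, so they are no independent evidence of a direction. Of 6 such partner and target genes, 2 were tested and neither was called. NH3 (Os03g0667100), an NPR1-like coactivator, had 240 and 178 counts in WT, against 54 and 84 in the OsbZIP47KD libraries, with a log2 fold change of -1.24 (SE 0.30, adjusted p = 0.09243, edgeR quasi-likelihood test). OsWRKY45 (Os05g0322900), a regulator of the salicylic acid response in rice, had 541 and 216 counts in WT, against 161 and 131 in the OsbZIP47KD libraries, with a log2 fold change of -0.99 (SE 0.40, adjusted p = 0.3327, edgeR quasi-likelihood test). On the CPM scale, too, both OsbZIP47KD libraries lay below both WT libraries for NH3 and OsWRKY45, beside 22.8% of all tested genes. The margin was clear for NH3 only. OsWRKY45 had 102 and 42.92 CPM in WT, against 42.03 and 31.25 CPM in the OsbZIP47KD libraries. Its levels in WT replicate 2 and OsbZIP47KD replicate 1 were thus nearly equal.

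The other 4 were under the filter. FCP1 (Os04g0473800), a CLAVATA3-like peptide of the rice meristem, had no count in WT and 4 and 12 in the OsbZIP47KD libraries. FON2 is given above. OsCPS4 (Os04g0178300) and OsKSL4 (Os04g0179700) encode diterpene cyclases of the momilactone gene cluster, in which TGA-type factors are known to act in rice. OsCPS4 had no count in WT and 4 and 10 in the OsbZIP47KD libraries, whereas OsKSL4 had 12 and 11 in WT and 1 and 2 in the OsbZIP47KD libraries. These neighbouring genes of 1 pathway thus had counts on opposite sides, at levels too low for the test.

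Of 9 other bZIP genes named in the same table, 7 were tested, 6 with a fold change below 0 and 1 above. That table holds genes the study found changed in these same samples, so bZIP genes without a change could not appear. These directions therefore do not describe the other bZIP genes at large. For all tested genes, the share called lower was 0.522%. OsbZIP23 (Os02g0766700), a regulator of drought and abscisic acid responses, was the only 1 called, with 626 and 692 counts in WT, against 258 and 186 in the OsbZIP47KD libraries and a log2 fold change of -1.19 (SE 0.23, adjusted p = 0.04286, edgeR quasi-likelihood test). BZIP24 (Os02g0833600) had the fold change above 0, 1.23, with 65 and 82 counts in WT, against 133 and 136 in the OsbZIP47KD libraries, and was not called (adjusted p = 0.09437, edgeR quasi-likelihood test). OsbZIP50 (Os06g0622700) and OsbZIP60 (Os07g0644100), known in the stress response of the endoplasmic reticulum, had log2 fold changes of -1.01 and -1.13 and were not called.

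Markers of tissue could be read only in part, since only those named in the study's table of changed genes were matched. They were thus chosen on these same samples, and markers without a change could not appear. OsAPO1 (Os06g0665400), an F-box gene of the inflorescence meristem, had 44 and 65 counts in WT, against 92 and 148 in the OsbZIP47KD libraries (adjusted p = 0.08904, edgeR quasi-likelihood test). The chlorophyll a/b-binding protein gene OsCAB1R (Os09g0346500), a marker of green tissue, had 293 and 233 counts in WT, against 37 and 40 in the OsbZIP47KD libraries and was called lower, with a log2 fold change of -2.40 (adjusted p = 0.00357, edgeR quasi-likelihood test). CAB2R (Os01g0600900) had 431 and 730 counts against 148 and 242 and was not called (adjusted p = 0.1212, edgeR quasi-likelihood test). Over all tested genes, 0.522% were called lower. The part of a different share of green tissue between the groups in the values of the bZIP members was not tested.

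The tested genes whose profile over the 4 libraries was most like that of OsbZIP47, by Euclidean distance of log2(CPM + 0.5), were Os10g0208500 (distance 0.96), Os09g0508500 (1.12), a gene for a protein with a double-stranded RNA-binding motif, and Os12g0541200 (1.17). Os10g0208500 had 434 and 211 counts in WT, against 946 and 490 in the OsbZIP47KD libraries. Like OsbZIP47 it was lower in WT replicate 2 than in WT replicate 1 and higher in both OsbZIP47KD libraries than in either WT library. Distance over 4 libraries describes these profiles and nothing else.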

How the data were processed

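The authors depleted ribosomal RNA, sequenced paired reads, aligned them to the RAP-DB rice genome with STAR v2.5.3a and deposited raw counts per gene. The counting program, its strand setting and the annotation version are not given in the sources used here, so overlapping, antisense or near-identical genes may share reads. A second deposited table holds normalized values, a score equal to the count times 1 factor per library, given for 29532 genes and blank for 8330.

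The deposited counts were fitted in R v4.3.3 using edgeR v4.0.16. Low genes were removed by filterByExpr (minimum count 10, minimum total 15), libraries were scaled by TMM, and the groups (n = 2 each) were compared by the robust quasi-likelihood test with Benjamini-Hochberg adjustment over all 25289 genes tested. The call threshold was an adjusted p of 0.05. SE was the fold change divided by the root of the F statistic. Members under the filter were given pooled counts and an exact binomial interval of their ratio. Library log CPM values correlated across genes with r = 0.9394 in WT, 0.9187 in OsbZIP47KD and 0.8813 to 0.9165 between groups. Genes are not independent replicates. The fit was also run on simulated counts with 1 spread common to all genes and differences set by group only. That run does not cover genes high in 1 library only.

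Named genes were all 10 members, the list genes that could be matched and the 3 genes nearest to OsbZIP47. The member rule (family membership) and the lists were written with earlier results of these data known. Of 37 listed identifiers only those named in the study's own table were used, since the reference table at hand (RefSeq) does not pair the identifiers with symbols. Levels per length, protein identity and promoter motifs were therefore not analysed here. Alternatives were other scalings (library size only, RLE, upper quartile), other filters (none, or 1 CPM in 2 libraries), other tests (the exact test of edgeR, DESeq2 v1.42.0, and limma v3.58.1 applied to the normalized score plus 1), a block for the replicate number, and leaving out each library.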

Additional observations from a re-analysis of the deposited data

How the results depend on the processing

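OsbZIP47 kept its direction in all 13 alternatives, with adjusted p-values from 9.333e-10 to 0.09688 over edgeR, DESeq2 and limma. Its log2 fold change was 1.39 to 2.2 with 1 library left out. It was not called without OsbZIP47KD replicate 1 (1.58, adjusted p = 0.09688) or replicate 2 (1.89, adjusted p = 0.06717), where 21 genes in all were called higher, so members called higher ranged from 0 to 1. Members higher at the study's limits numbered 1 to 4 with a library left out and 3 with no filter. No member was lower in any alternative at either threshold.

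The fold changes of Os04g0637000, TGA2.1 and Os11g0152700 changed sign in some alternatives, and those of the other 5 tested members in none. That of Os04g0637000 was -0.0092 with no filter and -0.23 to 0.30 with a library left out, being -0.20 without WT replicate 1 and -0.23 without OsbZIP47KD replicate 2. That of TGA2.1 was 0.018 with upper quartile scaling, 0.0082 with library size only and -0.43 to 0.31 with a library left out. That of Os11g0152700 was -0.57 to 2.0 and that of OsbZIP64 0.65 to 2.56, both lowest without OsbZIP47KD replicate 2. The adjusted p of OsbZIP64 was 0.06182 to 0.7954 over all alternatives.

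NH3 was called, as the 1 partner gene, with no filter, by the exact test and with the replicate block, and the count was 0 to 2 with a library left out. The sum of all 10 members in OsbZIP47KD was 380 to 404 CPM with a library left out, and that of the 9 relatives in WT was 118 CPM with upper quartile scaling or library size only and 119 to 124 with a library left out. The median log2 fold change of all genes was 0.015 with TMM, 0.0192 with RLE, 0.109 with upper quartile scaling and 0.0974 with library size only.

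Calls over all genes, higher and lower, were 32 and 132 in the main analysis, 236 and 551 with no filter, 139 and 298 with DESeq2, 342 and 433 with the exact test, 87 and 186 with WT replicate 1 left out, 382 and 850 with WT replicate 2 left out, and 21 and 49 without either OsbZIP47KD library. With the replicate block they were 186 and 410, and OsbZIP47 had a log2 fold change of 1.82 (adjusted p = 3.05e-05). Replicate numbers did not pair the samples, since deviations of same-numbered libraries correlated with r = 0.038 across genes and no label ties them. Where 1 library of a group remained, the fit took its spread from the opposite group.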
